A study of Mus musculus with 19 samples.

Results

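The genes of fatty acid oxidation and of the PPARα response were followed in the liver transcriptomes of mice with fibrosis induced by thioacetamide (TAA), a hepatotoxin, that received hepatocyte-directed miR-34b/c. A list of 37 gene symbols defined the set, and all 37 were found among the 31053 genes of the count table. Of these, 35 had a mean of at least 10 counts per library, and *Pdk4* and *Fgf21* lay below. The list holds 2 regulators, 16 enzymes and carriers of mitochondrial β-oxidation, 7 peroxisomal proteins, 3 enzymes found in both organelles, and 9 proteins of ketone metabolism, fuel choice, secretion, fatty acid uptake and lipid storage.

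The study used male C57BL/6J mice, 6 to 8 weeks old before the treatment course. Vehicle-treated mice (5 libraries, labelled PBS) received PBS in place of TAA, and no vector is named for them. AAV-GFP-injected mice (7 libraries) received TAA in increasing doses for 12 weeks and, after 10 weeks, AAV8 encoding eGFP. AAV-miR-34b/c-injected mice (7 libraries) received the same TAA course with a pair of AAV8 vectors encoding miR-34b and miR-34c, and both vectors drove expression from TBG, a promoter active in hepatocytes. Both TAA groups were sacrificed 4 weeks after the injection. Comparisons of either TAA group with vehicle therefore joined TAA and vector, which cannot be told apart here. RNA was from whole liver, so fewer cells of a type and less RNA per cell cannot be told apart either.

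β-oxidation shortens fatty acids by repeated dehydrogenation, hydration, a second dehydrogenation and thiolysis. Mitochondria take up acyl groups through the carnitine shuttle and oxidise most of the fatty acids, whereas peroxisomes shorten very long chains first. PPARα, a nuclear receptor abundant in hepatocytes, binds DNA with RXR at direct repeats of a short motif and switches on genes of both organelles during fasting, together with lipid uptake, lipid droplet and ketogenic genes.

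Libraries held 2214073 to 5208405 counts, with medians of 2858900 in the PBS group, 3116304 in the eGFP group and 3040202 in the miR-34b/c group. The 11 hepatocyte markers summed to 86543 to 109650 CPM (a count relative to the library's TMM-scaled total, on the usual CPM scale) in vehicle, 88498 to 101831 CPM in AAV-GFP and 96941 to 141399 CPM in AAV-miR-34b/c livers. Of these markers 4 were higher and 1 lower in AAV-miR-34b/c than in vehicle mice (45.5% called, against 21.9% of all genes). Against AAV-GFP mice 1 was higher and 0 lower (9.09%, against 3.36%). In AAV-GFP against vehicle mice 2 were higher and 0 lower (18.2%, against 12.7%). The sum includes *Fgb*, the marker with the second highest mean count, which is also an acute phase gene and rose between the TAA groups. The part of these markers in the members' results was not tested. *Alb* was not called different in any comparison. Several libraries of the same group resembled each other closely. For 7 pairs the variation beyond counting noise was under 0.2 (lowest 0.0779, AAV-miR-34b/c replicates 3 and 4). It was above 0 in each, which does not show that the libraries of a pair are independent. All libraries were kept. Where such pairs were summed, 3 vehicle samples remained, with 5 and 4 in the AAV-GFP and AAV-miR-34b/c groups. AAV-miR-34b/c replicates 1 and 2 stood apart from the other 5 of their group over all genes (variation of 0.319 to 0.429 against them, 0.149 between the pair). AAV-GFP replicates 6 and 7 varied by 0.316 to 0.364 against replicates 1 to 4 of their group, by 0.249 and 0.263 against replicate 5 and by 0.228 between them. Without replicate 6 or 7, 19.8% or 18.6% of all genes were called in AAV-GFP against vehicle (12.7% with both). Counts are therefore also given with close pairs summed and without AAV-miR-34b/c replicates 1 and 2.

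The vectors encode miR-34b and miR-34c, which were not measured in these libraries. A miRNA's seed pairs with a short site in 3′ UTRs. RefSeq (GRCm38.p6) gave the mature miR-34b at chr9:51103610-51103632, minus strand, shown here with its seed (bases 2 to 8) in capitals, since it defines the site searched:
mmu-miR-34b-5p: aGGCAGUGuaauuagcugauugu

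The site CACTGCC, searched on the sense strand of the longest annotated 3′ UTR of each gene, was present in 4 of the 35 members with at least 10 counts (11.4%), compared with 17.3% of 9279 genes at that count minimum and 16 of 81 other genes of the pathway (19.8%). The members were *Ppara*, *Bdh1*, *Decr2* and *Acaa2*. Windows of 10 bases on either side, with the site in capitals, are shown for 3 of them and for 2 further pathway genes that were lower in AAV-miR-34b/c mice (*Acsl1* and *Retsat*), 5′ to 3′ on the coding strand, with the site's position on GRCm38:
*Ppara* (chr15:85802654-85802660, plus): tccagatggaCACTGCCaaggagtcga
*Bdh1* (chr16:31458474-31458480, plus): cctacttggaCACTGCCagggaacaaa
*Decr2* (chr17:26081647-26081653, minus): cattcgccacCACTGCCcgggtttttt
*Acsl1* (chr8:46534644-46534650, plus): gggcacggaaCACTGCCttacttacag
*Retsat* (chr6:72607834-72607840, plus): caaaagatacCACTGCCgatgaaccaa

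An A follows the site in *Ppara* and *Bdh1*. A match describes the annotated transcript only, and whether these 3′ ends are used in these livers was not tested.

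For the PPARα element, promoters of 250 bases before to 50 bases after the RefSeq start were searched on both strands for AGGTCANAGGTCA with at most 2 mismatches. Of the 31 members with a promoter sequence, 6 held a match (19.4%), compared with 3.97% of 7533 genes with at least 10 counts, 4.4% of all 27025 promoters and 6 of 72 other pathway genes (8.33%). The 6 were *Fabp1*, *Cd36*, *Plin2*, *Etfa*, *Slc25a20* and *Creb3l3*. The match in *Fabp1* was the only one with 1 mismatch, and it lay 67 to 55 bases before the start. The windows of *Fabp1* and *Cd36*, the members of this group with called changes, are given on the gene's own strand with the match in capitals (in both it reads on the opposite strand), from RefSeq GRCm38.p6:
*Fabp1* (chr6:71199742-71199834, plus): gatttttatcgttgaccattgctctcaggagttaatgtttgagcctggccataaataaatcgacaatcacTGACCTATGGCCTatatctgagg
*Cd36* (chr5:17835937-17836029, minus): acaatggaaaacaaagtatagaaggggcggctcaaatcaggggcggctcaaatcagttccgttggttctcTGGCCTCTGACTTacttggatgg

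In livers of AAV-GFP-injected mice compared to vehicle-treated mice, 4 members were higher and none was lower, namely *Cd36*, *Vnn1*, *Acaa1b* and *Cpt2* (edgeR quasi-likelihood test, Benjamini-Hochberg adjusted p under 0.05 over all genes). This was 11.4% of the 35 tested, against 12.7% of the 9522 genes tested (7.54% higher and 5.19% lower), so the share called was near that of all genes. With DESeq2, 5 were higher and 1 was lower (16.4% of all genes called), and at an unadjusted p under 0.05 edgeR had 5 higher and 3 lower (2828 of all genes). The absence of lower calls held in some fits only. DESeq2 and all 3 groups in one fit (10.6% of all genes called) each called *Slc27a2* lower. Limma-voom with sample weights called 4 lower (*Eci2*, *Etfa*, *Etfb* and *Slc27a2*) beside 5 higher (28.2%). The replicate block called 10 lower beside 5 higher (32.9%). The fit without AAV-GFP replicate 6 called *Slc27a2* lower (19.8%), and the fit without replicate 7 called *Eci2* and *Etfa* lower (18.6%). Comparing AAV-miR-34b/c-injected with AAV-GFP-injected mice, the peroxisomal enzyme *Hsd17b4* and the ketone enzyme *Bdh1* were lower and none was higher. This was 5.71% of the members against 3.36% of 9252 genes (1.95% higher and 1.42% lower). The fitted value was negative for 30 of the 35 members, with a median log2 fold change of -0.31 against -0.01 for all genes, and 14 lower and 0 higher had an unadjusted p under 0.05, as did 1414 of the 9252 genes. DESeq2 called 4 lower and 0 higher, and 5.86% of all genes. In AAV-miR-34b/c compared to vehicle-treated mice, 9 members were lower and 2 were higher. This was 31.4% of the members against 21.9% of 9290 genes, with 25.7% of the members lower against 9.75% of all genes and 5.71% higher against 12.2%. The median of the members was -0.34 and that of all genes 0.02. The 3 comparisons share groups pairwise, so they are not independent of each other. In this text, called and not called refer to the edgeR fits of these 3 comparisons unless another fit is named.

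**Figure D1:**
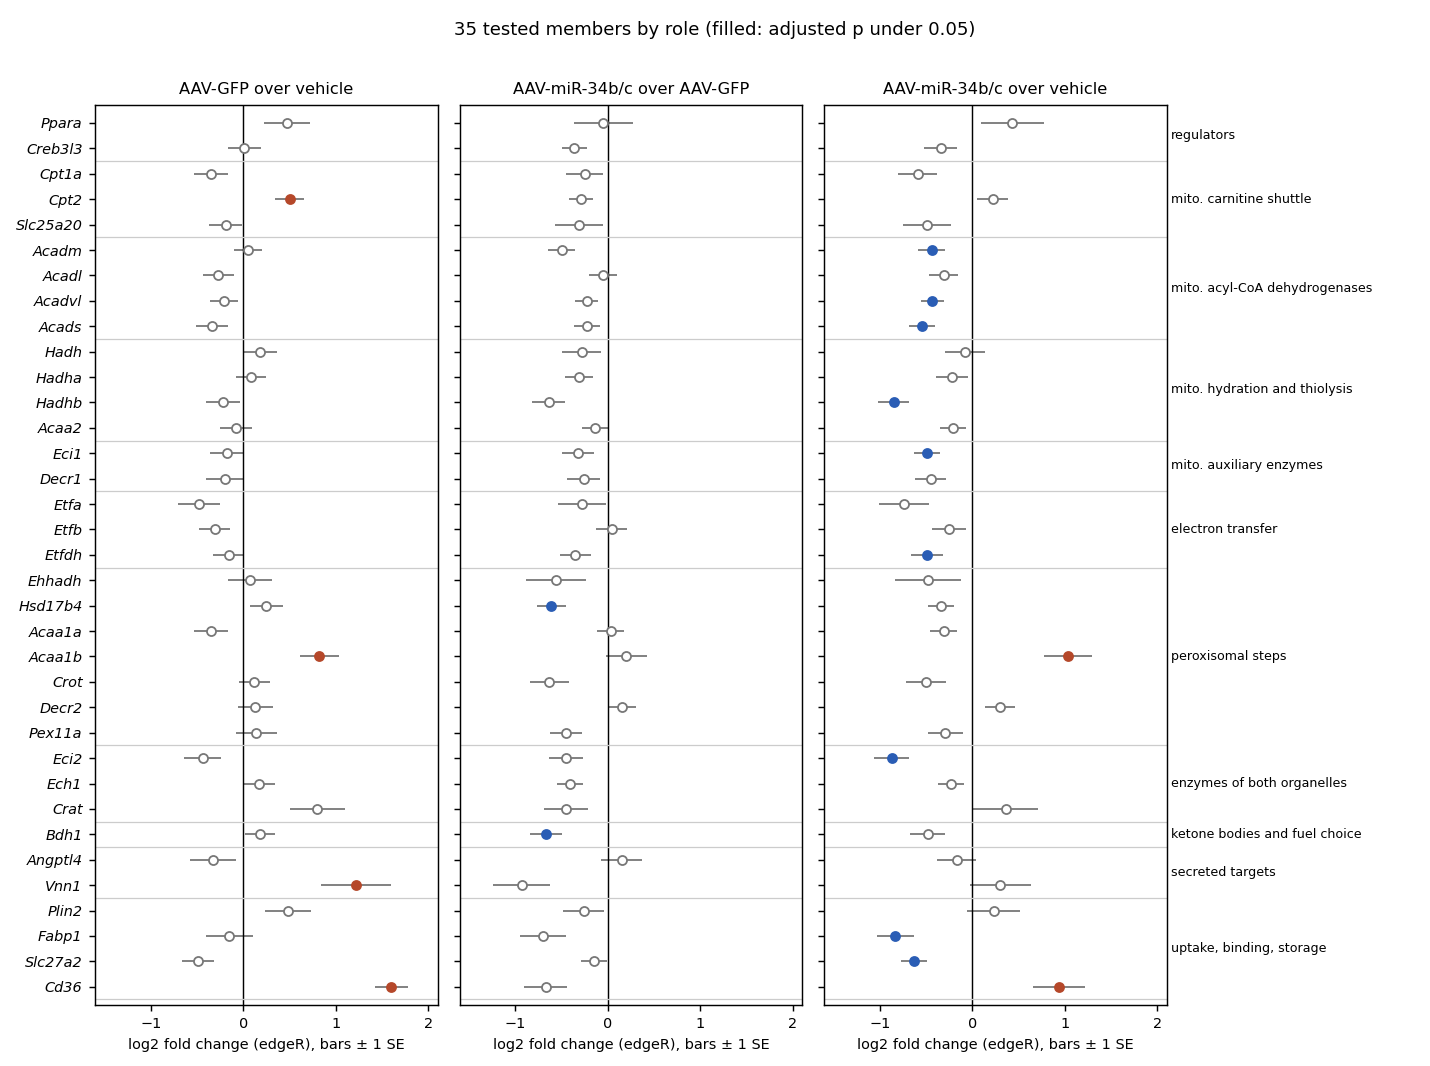
Log2 fold change (x axis, edgeR) with bars of 1 SE for the 35 tested members, arranged by role, in the 3 comparisons. Filled points passed the adjusted threshold of 0.05: 4 higher in the left panel, 2 lower in the middle panel, and 9 lower and 2 higher in the right panel.

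Several calls changed with the treatment of libraries. With close pairs summed, 1 member was called in AAV-GFP against vehicle (*Cd36*) and 0 in the other comparisons, where unadjusted p was under 0.05 for 11 members (all lower) in AAV-miR-34b/c against AAV-GFP and for 9 lower and 2 higher against vehicle. The share of all genes called was then 1.83%, 0.648% and 3.12%, and 1722 of 10547, 1193 of 10642 and 2639 of 10604 genes had an unadjusted p under 0.05. Without AAV-miR-34b/c replicates 1 and 2, 8 members were lower and 0 higher against AAV-GFP (7.54% of all genes called), and 16 were lower and 3 higher against vehicle (42.6% of all genes called). Scaling by library size alone moved the median log2 fold change of all genes to 0.05, -0.20 and -0.13 in these comparisons, and gave 4, 13 and 17 members called, with 13.1%, 6.74% and 25.3% of all genes called.

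Of the regulators, *Ppara* encodes PPARα and *Creb3l3* encodes a hepatocyte membrane-bound factor that cooperates with it during fasting. *Ppara* (chr15:85734983-85802819) was measured at 55.2, 87.2, 128, 62.6 and 99.8 CPM in the vehicle libraries. It ran from 56.3 to 157 CPM (median 127) in AAV-GFP mice and from 43.8 to 206 CPM (median 104) in AAV-miR-34b/c mice. The ranges overlapped, and within AAV-miR-34b/c mice replicates 1 and 2 were lowest (45.8 and 43.8 CPM) while replicates 5 and 7 were highest (175 and 206 CPM). The log2 fold changes were 0.47 ± 0.25 (SE, adjusted p = 0.209) for AAV-GFP against vehicle, -0.05 ± 0.32 (adjusted p = 0.966) for AAV-miR-34b/c against AAV-GFP and 0.43 ± 0.34 (adjusted p = 0.38) for the miR-34b/c group against vehicle. The 95% interval of the second ran from -0.67 to 0.57, and without replicates 1 and 2 its sign turned (0.26, not called). Also without them, *Ppara* was called higher in AAV-miR-34b/c than in vehicle mice (42.6% of all genes called). In AAV-GFP against vehicle mice, limma-voom with sample weights (28.2%) and the replicate block (32.9%) called *Ppara* higher.

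*Creb3l3* was at 347, 394, 646, 325 and 520 CPM in vehicle livers. It spanned 399 to 504 CPM (median 434) in AAV-GFP mice and 248 to 419 CPM (median 361) in AAV-miR-34b/c mice. In AAV-miR-34b/c mice, 5 of 7 libraries lay below every AAV-GFP library, but the difference of -0.36 ± 0.13 was not called (adjusted p = 0.163).

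The carnitine shuttle carries acyl groups into mitochondria through CPT1A on the outer membrane, the carrier SLC25A20, and CPT2 on the inner membrane. *Cpt1a*, the rate-controlling step, was at 163, 272, 270, 192 and 228 CPM in vehicle livers, 125 to 210 CPM (median 186) in AAV-GFP and 84.8 to 199 CPM (median 159) in AAV-miR-34b/c livers. Its log2 fold changes of -0.35 ± 0.18, -0.25 ± 0.20 and -0.59 ± 0.21 were not called by edgeR as reported (adjusted p = 0.193, 0.63 and 0.0559, in the order of the comparisons above). In AAV-miR-34b/c against vehicle mice, 4 other fits with all libraries called *Cpt1a* lower. These were DESeq2 (26.2% of all genes called), all 3 groups in one fit (20.5%), library size scaling alone (25.3%) and the replicate block (10.2%). The edgeR fit without AAV-miR-34b/c replicate 7 also called it lower (17.8%). *Cpt2* was at 55.9, 72.1, 63.1, 42.3 and 65.6 CPM in vehicle livers, and the 7 AAV-GFP libraries (76.2 to 96.4 CPM, median 83.2) lay above all of them. The rise of 0.50 ± 0.16 (adjusted p = 0.0423) lost its call in 9 of the 12 fits that left out 1 library, all but those without vehicle replicate 2 or AAV-GFP replicate 6 or 7 (log2 fold change 0.41 to 0.59 over these fits) and with close pairs summed (adjusted p = 0.296). In AAV-miR-34b/c mice *Cpt2* was at 53.3 to 83.3 CPM (median 71.6) and was not called against either group.

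*Slc25a20* was split within the AAV-miR-34b/c group. Replicates 1 and 2 had 123 and 121 CPM, whereas the other 5 had 40.0 to 55.7 CPM, below the lowest vehicle library (86.2 CPM). Over all 7 libraries *Slc25a20* was not called by edgeR with TMM (-0.49 ± 0.26 against vehicle, adjusted p = 0.187). Scaling by library size alone (25.3% of all genes called) and limma-voom with sample weights (41.3%) called it lower against vehicle. Without replicates 1 and 2, edgeR called it lower against vehicle (42.6%) and against AAV-GFP (7.54%).

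The acyl-CoA dehydrogenases carry out the first oxidation step, each on its own range of chain lengths, and 3 of the 4 were lower in AAV-miR-34b/c than in vehicle mice, where 9.75% of all genes were called lower. *Acads*, for short chains, was at 323, 369, 450, 280 and 363 CPM in vehicle livers and at 201 to 266 CPM (median 247) in AAV-miR-34b/c livers. All AAV-miR-34b/c libraries lay below all vehicle libraries, and the fall of -0.54 ± 0.14 (adjusted p = 0.0115) kept its call in each of the 12 fits with 1 library left out. *Acadvl*, for very long chains, had 296, 255, 342, 305 and 319 CPM in vehicle and 202 to 241 CPM (median 222) in AAV-miR-34b/c livers. These ranges did not overlap either (-0.43 ± 0.12, adjusted p = 0.0208), although the call was lost without vehicle replicate 5 or AAV-miR-34b/c replicate 4. *Acadvl* overlaps *Dvl2* on the opposite strand, which held a mean of 21.2 counts. The strand setting of the counting is not given in the sources used here, and the part of this overlap was not tested.

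*Acadm*, for medium chains, was at 272, 270, 287, 259 and 247 CPM in vehicle livers, the narrowest spread of the dehydrogenases. In AAV-miR-34b/c mice it was at 156 to 256 CPM (median 185), where 6 of 7 libraries lay below the vehicle range and replicate 1 lay within it. The fall of -0.44 ± 0.15 (adjusted p = 0.0418) was lost in 10 of 12 fits without 1 library, all but those without AAV-miR-34b/c replicate 1 or 2, and became -0.61 (adjusted p = 0.000748) without replicates 1 and 2. Against AAV-GFP, *Acadm* was not called by edgeR as reported. There DESeq2 (5.86% of all genes called), limma-voom with sample weights (8.79%) and all 3 groups in one fit (4.4%) called it lower. Library size scaling alone (6.74%) did too, as did edgeR without AAV-miR-34b/c replicate 1 (3.14%) or without replicates 1 and 2 (7.54%). *Acadl*, for long chains, was not called by edgeR as reported in any comparison. In AAV-GFP mice the 4 genes spanned 159 to 382 CPM, and edgeR as reported called none of their differences from vehicle. There the replicate block called *Acadl* and *Acads* lower (32.9% of all genes called).

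Hydration, the second oxidation and thiolysis of long chains take place on the trifunctional protein, made of HADHA and HADHB, and HADH and ACAA2 act on shorter chains. *Hadhb* (chr5:30155248-30184593) had the smallest adjusted p among the members between AAV-miR-34b/c and vehicle livers. It was at 42.6, 58.6, 51.1, 51.6 and 54.3 CPM in vehicle livers, 33.5 to 60.5 CPM (median 42.3) in AAV-GFP livers and 21.1 to 36.3 CPM (median 29.3) in AAV-miR-34b/c livers. The AAV-miR-34b/c libraries lay below all vehicle libraries, while AAV-GFP libraries reached into both ranges. The fall was -0.85 ± 0.17 (adjusted p = 0.00267) against vehicle, stayed called in all 12 fits without 1 library (-0.91 to -0.78), and had an adjusted p of 0.0525 with close pairs summed. Against AAV-GFP it was -0.64 ± 0.18 (adjusted p = 0.0546 by edgeR). There DESeq2 (5.86% of all genes called), limma-voom with sample weights (8.79%) and all 3 groups in one fit (4.4%) called *Hadhb* lower. Library size scaling alone (6.74%) and a filter of 10 counts in every library (4.2%) did too. So did the fits without AAV-GFP replicate 2, 3 or 4 or AAV-miR-34b/c replicate 2 (2.53% to 3.68%). The fit without AAV-miR-34b/c replicates 1 and 2 (7.54%) also called it lower. The replicate block and close pairs summed were among the fits that did not. *Hadha*, which lies beside *Hadhb* on the opposite strand and encodes its partner subunit, was at 186 to 397 CPM over all libraries and was not called (-0.22 ± 0.17 against vehicle, adjusted p = 0.366). *Hadh* and *Acaa2* were not called either, at 167 to 523 and 607 to 1099 CPM. Without AAV-miR-34b/c replicates 1 and 2, *Hadh* was called lower against AAV-GFP (7.54% of all genes called).

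Among the auxiliary enzymes for unsaturated chains, *Eci1* was at 137, 136, 149, 127 and 110 CPM in vehicle livers and at 81.8 to 123 CPM (median 88.5) in AAV-miR-34b/c livers, where only replicate 1 lay within the vehicle range. It fell by 0.49 ± 0.14 on the log2 scale (adjusted p = 0.0209), a call lost without vehicle replicate 1. *Decr1* was at -0.45 ± 0.17 (adjusted p = 0.0641 by edgeR), and DESeq2 called it lower (26.2% of all genes called). Electrons from the dehydrogenases pass through the ETFA and ETFB dimer to ETFDH. *Etfdh* was at 90.6, 76.3, 68.0, 91.6 and 85.7 CPM in vehicle livers and 43.5 to 81.4 CPM (median 54.0) in AAV-miR-34b/c livers, of which 5 of 7 were below the vehicle range. Its fall of -0.49 ± 0.17 (adjusted p = 0.0443) was lost in 9 of 12 fits without 1 library, all but those without vehicle replicate 3 or AAV-miR-34b/c replicate 1 or 2. *Etfa* (-0.74 ± 0.27, adjusted p = 0.0542) and *Etfb* (-0.25 ± 0.18, adjusted p = 0.312) were not called by edgeR. Both were higher in AAV-miR-34b/c replicates 1 and 2 (136 and 111 CPM for *Etfa*, 802 and 838 CPM for *Etfb*) than in the other 5. Without these replicates edgeR called both lower against vehicle (42.6% of all genes called). Over all libraries, limma-voom with sample weights called both lower (41.3%), and DESeq2 called *Etfa* lower (26.2%).

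Of the 16 mitochondrial members, 6 were thus lower and 0 higher in AAV-miR-34b/c compared to vehicle mice by edgeR, with a median of -0.45, and DESeq2 called 9 lower and 0 higher. At an unadjusted p under 0.05, 9 were lower and 0 higher. Of all genes, edgeR called 9.75% lower, DESeq2 called 26.2% in either direction, and 3427 of 9290 had an unadjusted p under 0.05. Against AAV-GFP, edgeR called none, 4 had an unadjusted p under 0.05 (all lower), DESeq2 called 2, and the median was -0.28. Of all genes, 3.36% were called by edgeR and 5.86% by DESeq2 there, and 1414 of 9252 had an unadjusted p under 0.05.

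**Figure D2:**
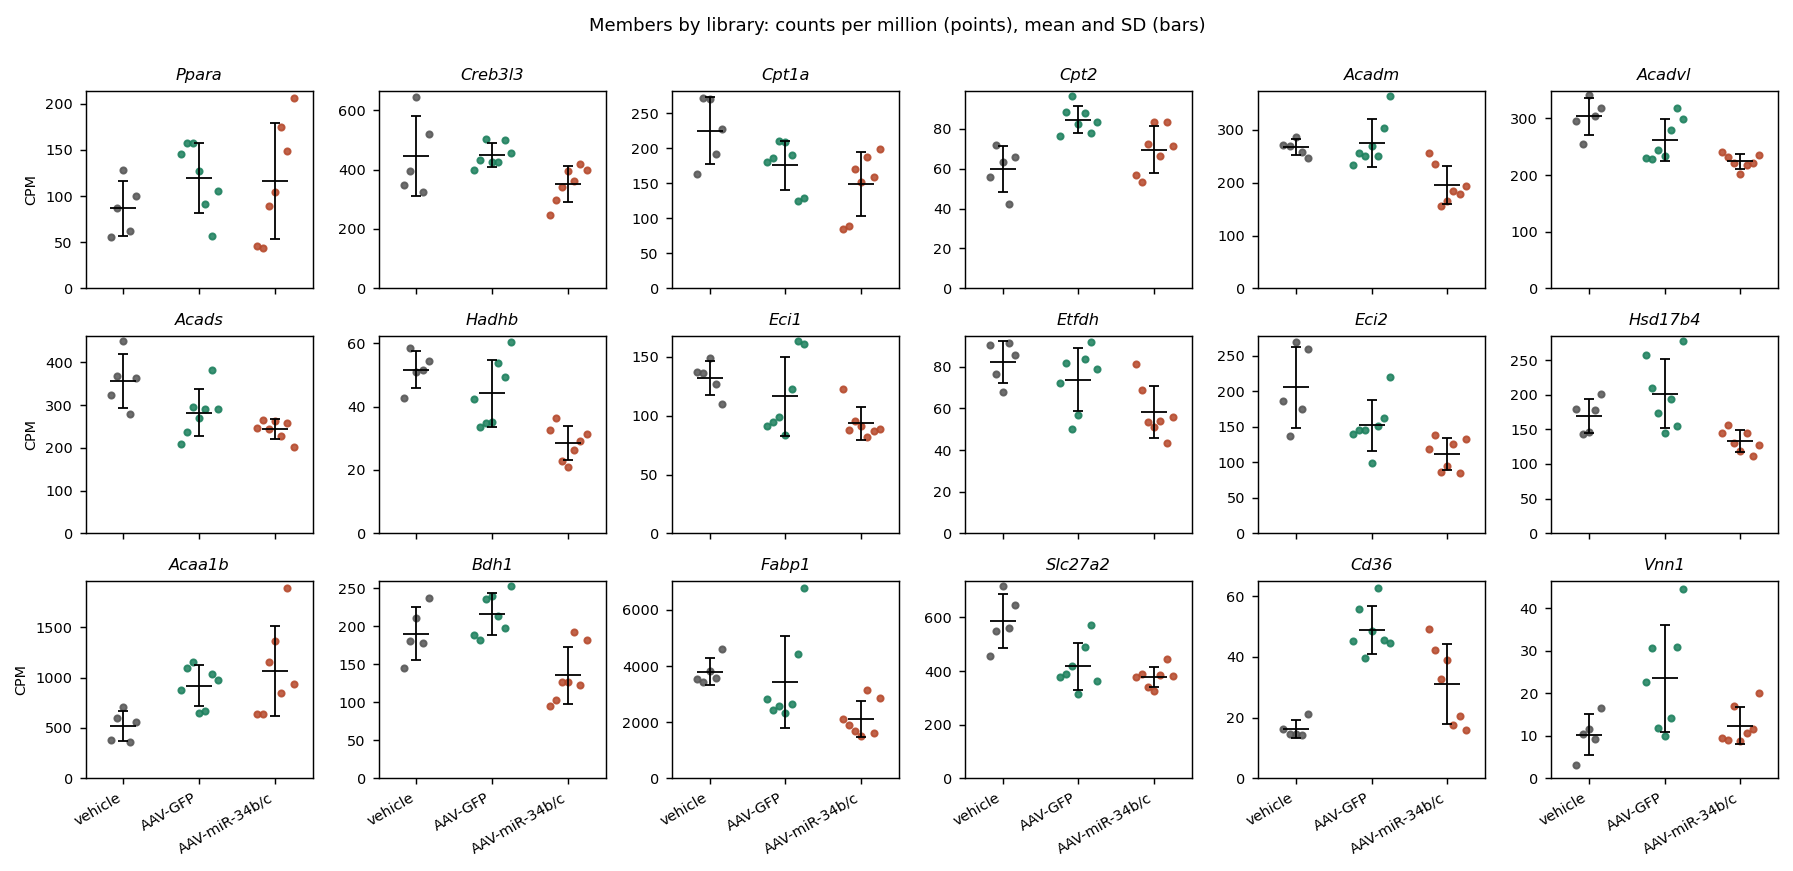
Level in each library (points, CPM), with mean and SD (bars), of *Ppara*, *Creb3l3*, *Cpt1a* and the 15 members called in at least 1 comparison, in mice given vehicle (5), AAV-GFP (7) or AAV-miR-34b/c (7). The AAV-miR-34b/c libraries lie below all vehicle libraries for *Acadvl*, *Acads*, *Hadhb*, *Fabp1* and *Slc27a2*, and the AAV-GFP libraries lie above all vehicle libraries for *Cpt2* and *Cd36*.

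In peroxisomes, ACAA1A and ACAA1B are thiolases, EHHADH and HSD17B4 are bifunctional enzymes, CROT passes shortened chains on as carnitine esters, DECR2 serves unsaturated chains and PEX11A takes part in peroxisome proliferation. *Acaa1b* was higher in both TAA groups. It was at 384, 599, 708, 357 and 562 CPM in vehicle livers, 649 to 1155 CPM (median 973) in AAV-GFP livers and 640 to 1890 CPM (median 936) in AAV-miR-34b/c livers. In each TAA group 5 of 7 libraries lay above the vehicle range. The rises were 0.82 ± 0.21 (adjusted p = 0.0145) and 1.03 ± 0.26 (adjusted p = 0.0113), and each kept its call in all 12 fits without 1 library. With close pairs summed the adjusted p was 0.135 and 0.0827. *Acaa1a*, a near-identical gene that may share reads with it, was not called and had negative values against vehicle (-0.35 ± 0.18 and -0.31 ± 0.15), so the split between the copies is uncertain.

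*Hsd17b4* was lower in AAV-miR-34b/c than in AAV-GFP mice. It was at 179, 143, 146, 178 and 201 CPM in vehicle livers, 145 to 277 CPM (median 194) in AAV-GFP livers and 112 to 156 CPM (median 130) in AAV-miR-34b/c livers, where 6 of 7 libraries lay below the AAV-GFP range. The fall of -0.61 ± 0.16 (adjusted p = 0.0448) was lost in 11 of 14 fits without 1 library, all but those without AAV-GFP replicate 4 or 6 or AAV-miR-34b/c replicate 2, and with close pairs summed (adjusted p = 0.262). *Ehhadh* was at 22.7 and 25.6 CPM in AAV-miR-34b/c replicates 1 and 2 and at 6.35 to 10.7 CPM in the other 5, and *Crot* at 502 and 519 CPM against 200 to 340 CPM. Neither was called over all libraries by edgeR with TMM (-0.56 ± 0.32 and -0.63 ± 0.21 against AAV-GFP, adjusted p = 0.428 and 0.122). There limma-voom with sample weights called both lower (8.79% of all genes called). Without replicates 1 and 2, edgeR also called both lower (7.54%), and scaling by library size alone called *Crot* lower (6.74%). *Decr2* and *Pex11a* spanned 144 to 314 and 132 to 375 CPM and were not called.

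Mitochondrial and peroxisomal steps were then set side by side in each library. The level of each organelle's members was taken as their mean log2 CPM around each gene's mean over the 19 libraries. The mitochondrial level was 0.21 ± 0.09 (SD, n = 5) in vehicle, 0.06 ± 0.19 (n = 7) in AAV-GFP and -0.21 ± 0.13 (n = 7) in AAV-miR-34b/c mice. All but 1 of the AAV-miR-34b/c libraries lay below zero, and all of them lay below the lowest vehicle library (0.12). The peroxisomal level was -0.02 ± 0.21, 0.15 ± 0.25 and -0.13 ± 0.15, with overlapping ranges in all groups. The mitochondrial minus peroxisomal level was 0.23 ± 0.14 in vehicle (0.29, 0.44, 0.09, 0.23 and 0.10), -0.09 ± 0.18 in AAV-GFP (range -0.31 to 0.17) and -0.08 ± 0.08 in AAV-miR-34b/c livers (range -0.14 to 0.09). The AAV-GFP mean differed from vehicle by -0.32 (SD between mice within groups 0.16), the AAV-miR-34b/c mean by -0.31 (SD 0.12), and the TAA groups from each other by 0.01 (SD 0.14). With *Acaa1a* and *Acaa1b* both left out, the AAV-miR-34b/c mean differed by -0.13 from vehicle and by 0.15 from AAV-GFP, and the AAV-GFP mean by -0.29 from vehicle. No test was made on these levels.

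**Figure D3:**
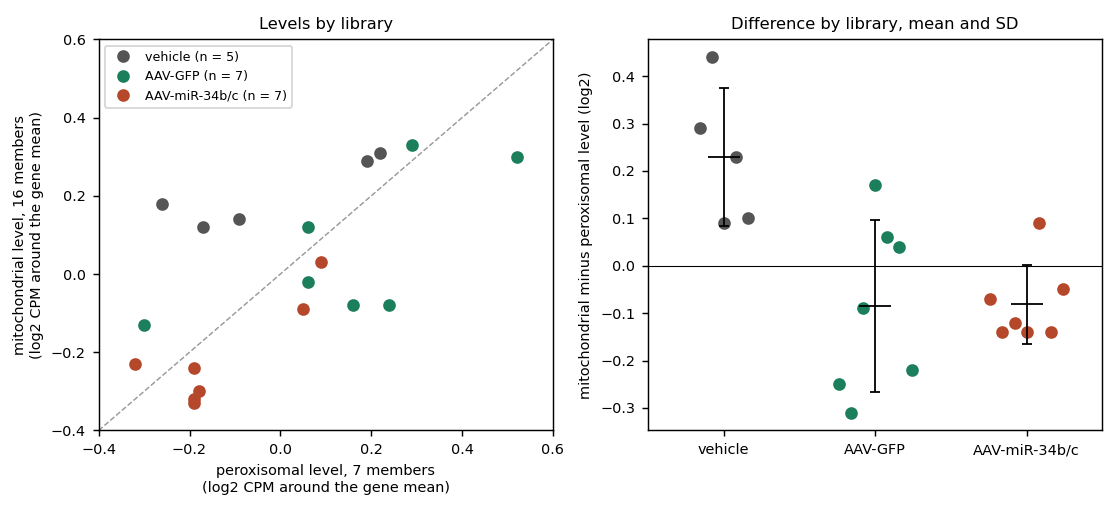
Left, mitochondrial level (16 members) against peroxisomal level (7 members) in each library, both as mean log2 CPM around the gene mean, with the line of equality dashed. Right, the difference of these levels in each library, with mean and SD, where the vehicle libraries lie between 0.09 and 0.44 and the AAV-miR-34b/c libraries between -0.14 and 0.09.

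Of the enzymes found in both organelles, *Eci2*, an enoyl-CoA isomerase, was at 186, 137, 269, 175 and 259 CPM in vehicle livers. It was at 98.3 to 220 CPM (median 146) in AAV-GFP and 84.3 to 139 CPM (median 118) in AAV-miR-34b/c livers, with 6 of these 7 below the vehicle range. The fall against vehicle was -0.87 ± 0.19 (adjusted p = 0.00539) and kept its call in all 12 fits without 1 library. *Ech1* and *Crat* were not called in the edgeR fits reported. In AAV-GFP against vehicle mice, *Crat* was called higher by DESeq2 (16.4% of all genes called), limma-voom with sample weights (28.2%) and the replicate block (32.9%). It was also called higher without vehicle replicate 5 (9.97%). With scaling by library size alone, *Ech1* was called lower between the TAA groups (6.74%). *Crat*, carnitine acetyltransferase, was low at 3.43 to 16.5 CPM, and it overlaps *Dolpp1* on the opposite strand, which held a mean of 28.1 counts against 30.9 for *Crat*.

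In ketone metabolism, *Bdh1* (chr16:31422280-31458901), which interconverts acetoacetate and β-hydroxybutyrate in mitochondria, was the member with the smallest adjusted p between the TAA groups. It was at 145, 181, 210, 178 and 237 CPM in vehicle livers, 182 to 252 CPM (median 213) in AAV-GFP livers and 94.9 to 192 CPM (median 126) in AAV-miR-34b/c livers. Of these, 5 of 7 lay below the AAV-GFP range, and replicates 5 and 7 (192 and 182 CPM) lay at its lower end. The fall was -0.67 ± 0.17 (adjusted p = 0.0285). The call was lost in 7 of 14 fits without 1 library (AAV-GFP replicates 3, 5 and 7, AAV-miR-34b/c replicates 1, 3, 4 and 6, with -0.78 to -0.61 over all 14), with close pairs summed (adjusted p = 0.193) and without replicates 1 and 2 (-0.53, adjusted p = 0.051). *Bdh1* is among the members with the miR-34 site shown above, and *Ppara*, *Decr2* and *Acaa2*, with the same site, were not called.

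The kinase PDK4 spares glucose by inhibiting pyruvate dehydrogenase, and its gene is a sensitive PPARα target. *Pdk4* had no count in any of the 5 vehicle libraries, 1 to 14 counts in each AAV-GFP library and 1 to 5 in each AAV-miR-34b/c library. A floor of 3 counts over the vehicle group made the pooled level at least 8.79-fold higher in AAV-GFP mice and at least 3.66-fold higher in AAV-miR-34b/c mice. An exact permutation test on log2 CPM, run two-sided, gave an adjusted p of 0.00699 for each difference over 6 tests. An unadjusted p of 0.00126 is the smallest that these group sizes can give. Between the TAA groups the same exact test gave p = 0.134 after adjustment. The test took each library as a separate mouse. It was not repeated with close pairs summed, where only 3 vehicle samples remained.

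Of the secreted targets, *Fgf21*, a fasting hormone, was counted in 1 of 5 vehicle libraries (4 counts), in all 7 AAV-GFP libraries (1 to 11 counts, 33 in all) and in 2 of 7 AAV-miR-34b/c libraries (4 counts in all). The exact permutation test gave an adjusted p of 0.00699 between the TAA groups, 0.0379 between AAV-GFP and vehicle livers and, for the miR-34b/c group set against the PBS group, 0.894. These are differences between very low levels, and here too the test was not repeated with close pairs summed. *Vnn1*, a liver pantetheinase, was at 3.09, 10.5, 11.6, 9.29 and 16.5 CPM in vehicle, 9.92 to 44.5 CPM (median 22.6) in AAV-GFP and 8.76 to 20 CPM (median 10.6) in AAV-miR-34b/c livers. The rise in AAV-GFP mice was 1.22 ± 0.38 (adjusted p = 0.0395), with 4 of 7 libraries above the vehicle range, and was lost in 7 of 12 fits without 1 library (vehicle replicates 1 to 4, AAV-GFP replicates 1, 2 and 7). Against AAV-GFP, the AAV-miR-34b/c value was -0.93 ± 0.31 (adjusted p = 0.126). *Angptl4*, an inhibitor of lipoprotein lipase, spanned 14.9 to 65.6 CPM and was not called.

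Among the genes of fatty acid uptake, binding and storage, *Cd36* (chr5:17781690-17888801), a fatty acid translocase, had the largest fitted change among the 35 tested members, *Pdk4* being below the count filter. It was at 16.1, 14.5, 14.7, 14.4 and 21.3 CPM in vehicle livers and at 39.6 to 62.7 CPM (median 45.6) in AAV-GFP livers, without overlap. The rise was 1.60 ± 0.18 (adjusted p = 1.73e-05), kept its call in all 12 fits without 1 library (1.53 to 1.72) and, alone among the members, kept it with close pairs summed (1.64, adjusted p = 0.00213). In AAV-miR-34b/c mice *Cd36* was at 15.8 to 49.2 CPM (median 32.7). Replicates 1 to 4 had 32.7 to 49.2 CPM, whereas replicates 5, 6 and 7 had 17.6, 20.5 and 15.8 CPM, within the vehicle range. It was 0.94 ± 0.28 above vehicle (adjusted p = 0.0265, lost without vehicle replicate 1, 2, 3 or 4 or AAV-miR-34b/c replicate 4, and 0.21 with an adjusted p of 0.682 when the mean level of circadian clock output genes was a covariate (the clock score)) and -0.67 ± 0.23 against AAV-GFP (adjusted p = 0.143). Between the TAA groups, *Cd36* was called lower by limma-voom with sample weights (8.79% of all genes called) and with library size scaling alone (6.74%). It was also called lower there without AAV-miR-34b/c replicates 1 and 2 (7.54%). CD36 is also found on macrophages and endothelial cells, so the bulk level does not show which cells carried it.

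*Fabp1* (chr6:71199827-71205023), the liver fatty acid binding protein, held 3782 to 21190 counts per library. It was at 3550, 3416, 3833, 3574 and 4600 CPM in vehicle livers, 2323 to 6783 CPM (median 2641) in AAV-GFP livers and 1505 to 3135 CPM (median 1907) in AAV-miR-34b/c livers. The AAV-miR-34b/c libraries lay below all vehicle libraries. In AAV-GFP mice 5 of 7 also did, and replicate 7 was above all of them. The fall in AAV-miR-34b/c mice was -0.83 ± 0.20 against vehicle (adjusted p = 0.00778, called in all 12 fits without 1 library, and -0.46 with an adjusted p of 0.145 with the clock score as covariate) and -0.70 ± 0.25 against AAV-GFP (adjusted p = 0.162). *Slc27a2*, which imports and activates very long fatty acids, was at 458, 550, 718, 559 and 648 CPM in vehicle, 316 to 573 CPM (median 389) in AAV-GFP and 326 to 446 CPM (median 380) in AAV-miR-34b/c livers. Its fall of -0.63 ± 0.14 against vehicle (adjusted p = 0.00541) was called in all 12 fits without 1 library, and the value in AAV-GFP against vehicle, -0.49 ± 0.17, had an adjusted p of 0.0632. In AAV-GFP against vehicle mice, DESeq2 (16.4% of all genes called), all 3 groups in one fit (10.6%) and limma-voom with sample weights (28.2%) called *Slc27a2* lower. The replicate block (32.9%) and the fit without AAV-GFP replicate 6 (19.8%) did too. *Plin2*, which coats lipid droplets, spanned 257 to 915 CPM and was not called.

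Beyond the members, 90 other genes of the same pathways were followed, of which 7 were higher and 3 lower in AAV-GFP than in vehicle mice (12.3% of 81 tested, against 12.7% of all genes). Between the TAA groups 1 was higher and 6 lower (8.86% of 79, against 3.36%), and 5 were higher and 16 lower in AAV-miR-34b/c than in vehicle mice (26.6% of 79, against 21.9%). The medians were 0.04, -0.19 and -0.20.

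Between the TAA groups, 3 of the 16 other PPARα targets tested were lower and 0 higher, against 1.42% of all genes lower. *Cyp4a14*, a fatty acid ω-hydroxylase, was at 6.86, 18.1, 117, 6.11 and 124 CPM in vehicle livers, 80.8 to 289 CPM (median 142) in AAV-GFP livers and 7.62 to 77.0 CPM (median 11) in AAV-miR-34b/c livers. The TAA groups did not overlap (-2.67 ± 0.50, adjusted p = 0.00477, with close pairs summed 0.06). Within the AAV-miR-34b/c group replicates 1 and 2 were highest, and the value without them was -3.97. *Acot1*, a cytosolic acyl-CoA thioesterase, was at 9.69 to 31.4 CPM in AAV-GFP and 1.97 to 8.16 CPM in AAV-miR-34b/c livers, again without overlap (-1.96 ± 0.36, adjusted p = 0.00382, with close pairs summed 0.0684). *Retsat*, a retinol saturase, differed by -0.74 ± 0.16 (adjusted p = 0.0126, with close pairs summed 0.138). *Acsl1*, an acyl-CoA synthetase named here after its values were seen because it holds the miR-34 site, was higher in AAV-GFP than in vehicle mice (0.65 ± 0.18, adjusted p = 0.025, lost without vehicle replicate 1 or 4 or AAV-GFP replicate 1 or 3, with close pairs summed 0.226) and lower in AAV-miR-34b/c than in AAV-GFP mice (-0.90 ± 0.20, adjusted p = 0.0145, with close pairs summed 0.193). Over members and other pathway genes, 3 of 20 with the site were lower between the TAA groups (*Bdh1*, *Acsl1* and *Retsat*) and 5 of 94 without it, but the medians were -0.19 with the site and -0.27 without it. Of all genes, 1.42% were called lower in this comparison, and how many of those with the site were was not counted.

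*Cyp4a10*, a further ω-hydroxylase, was not called between the TAA groups (-0.78 ± 0.27, adjusted p = 0.144). *Pxmp2*, a peroxisomal membrane channel, was the only pathway gene higher in AAV-miR-34b/c than in AAV-GFP mice (0.93 ± 0.20, adjusted p = 0.0108), at 310 to 373 CPM against 83.7 to 239 CPM, and it was also higher than in vehicle mice (0.61 ± 0.13). Both calls were lost with close pairs summed (adjusted p = 0.137 and 0.0925).

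Against vehicle, the lipid droplet gene *Fitm1* was lower in both TAA groups (-1.90 ± 0.26, adjusted p = 0.000106, and -3.00 ± 0.30, adjusted p = 2.2e-05), and kept its calls with close pairs summed. The peroxisomal membrane gene *Pxmp4* was higher in both (0.95 ± 0.17 and 1.06 ± 0.22). With close pairs summed its adjusted p was 0.0411 in AAV-GFP and 0.0523 in AAV-miR-34b/c mice, and with the clock score as covariate neither value was called (0.78, adjusted p = 0.1, and 0.60, adjusted p = 0.11). *Esrra*, a nuclear receptor of mitochondrial genes, and *Nudt7*, a peroxisomal CoA hydrolase, were lower in AAV-GFP mice (-0.92 ± 0.26 and -0.95 ± 0.28), calls lost in 6 fits (without vehicle replicate 1, 2 or 4 or AAV-GFP replicate 2, 3 or 4) and 8 fits (without vehicle replicate 1, 3, 4 or 5 or AAV-GFP replicate 1, 2, 3 or 4) of 12, and with close pairs summed (adjusted p = 0.18 and 0.365). *Nudt7* was also lower in AAV-miR-34b/c than in vehicle mice (-0.95 ± 0.20, adjusted p = 0.00461), a call kept in each of 12 fits without 1 library (-1.08 to -0.88) and with the clock score as covariate (adjusted p = 0.0346), but not with close pairs summed (-0.91, adjusted p = 0.0861). The matrix enzymes *Echs1* (-0.89 ± 0.18, adjusted p = 0.00343, with close pairs summed 0.0526) and *Pccb* (-0.74 ± 0.14, adjusted p = 0.00231, with close pairs summed 0.0613) were lower in AAV-miR-34b/c mice.

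**Figure D4:**
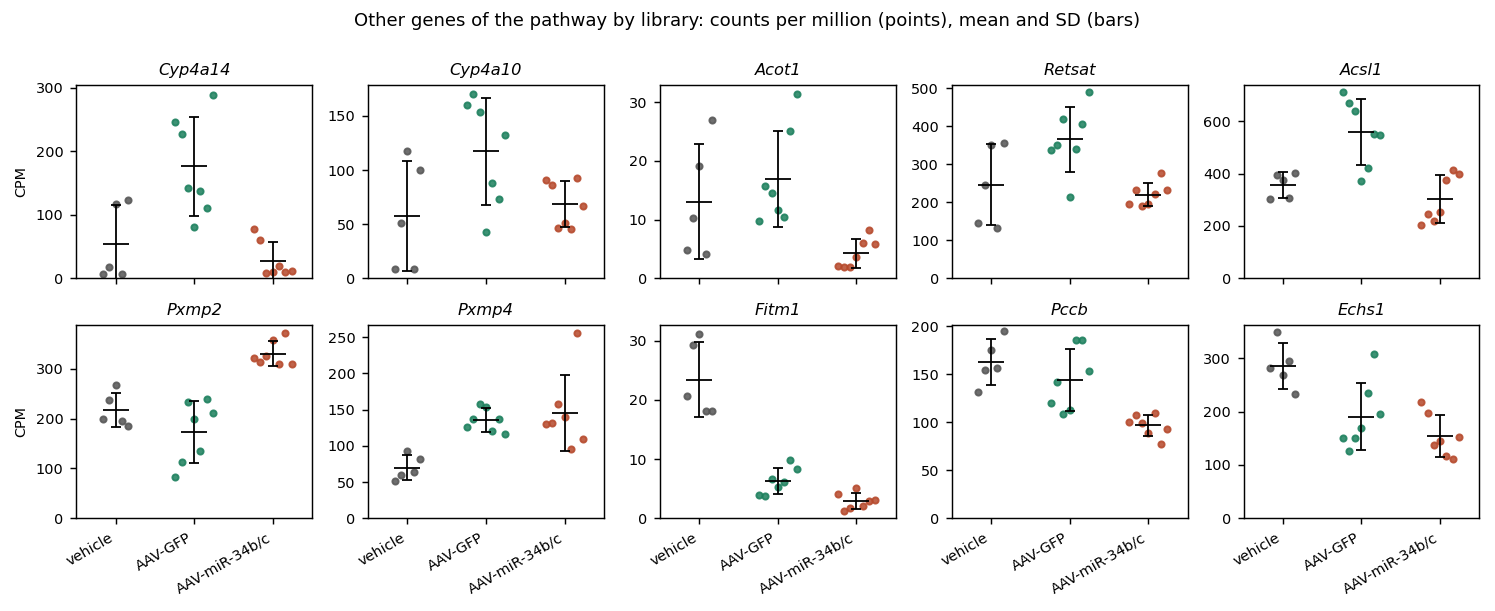
Level in each library (points, CPM), with mean and SD (bars, ending at 0 where they would cross it), of 10 other pathway genes in mice given vehicle (5), AAV-GFP (7) or AAV-miR-34b/c (7). *Cyp4a14* and *Acot1* do not overlap between the TAA groups, and *Fitm1* does not overlap between vehicle and either TAA group.

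Other gene groups moved alongside these results, and their part in them was not tested. Between the TAA groups, 16 of 18 acute phase genes were higher and 0 lower, their summed level being 53860 to 202327 CPM in AAV-miR-34b/c against 25600 to 61780 CPM in AAV-GFP mice (vehicle 32926 to 77114 CPM), and *Fgb*, also among the hepatocyte markers, rose by 1.35 ± 0.21. Summed neutrophil markers were at 60.9 to 1859 CPM in AAV-miR-34b/c, 15 to 70.3 CPM in AAV-GFP and 16.5 to 78.4 CPM in vehicle mice, with *S100a8* and *S100a9* the 2 of 7 markers tested and both higher. Activated stellate cell markers (12 genes) summed to 85 to 150 CPM, 151 to 309 CPM and 68.4 to 161 CPM in the same order. Macrophage markers (12 genes) summed to 598 to 893 CPM, 423 to 688 CPM and 495 to 952 CPM. Endothelial (252 to 322, 199 to 278 and 228 to 285 CPM) and cholangiocyte markers (33.9 to 86.8, 23.1 to 63.3 and 14.2 to 29.9 CPM) were also present. T and B cell markers reached at most 7.36 CPM and adipocyte markers 45.4 CPM, with *Lep* and *Plin1* at 0 in every library.

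Since many PPARα targets follow feeding and time of day, outputs of the circadian clock were read in the same libraries, and the time of sacrifice is not given in the sources used here. Of 12 clock output genes, 5 were lower and 1 higher in AAV-GFP than in vehicle mice (5.19% of all genes lower, 7.54% higher). Of 11 tested, 3 were lower and 0 higher in AAV-miR-34b/c than in vehicle mice (9.75% of all genes lower, 12.2% higher). Between the TAA groups, 0 of 9 tested were lower and 1 higher in AAV-miR-34b/c mice (1.42% of all genes lower, 1.95% higher). The summed level of the 12 genes was 443 to 713 CPM in vehicle, 154 to 411 CPM in AAV-GFP and 152 to 596 CPM in AAV-miR-34b/c livers. With their mean log2 CPM as a covariate, the members called were 1 (*Cd36*), 2 (*Bdh1* and *Crot*, lower) and 4 (*Acads*, *Crot*, *Hadhb* and *Slc27a2*, lower) in the 3 comparisons, while 1.54%, 2.6% and 9.88% of all genes were called. The log2 fold changes with the covariate were 1.62 for *Vnn1*, 1.05 for *Acaa1b* and 0.64 for *Cpt2* in AAV-GFP against vehicle mice (adjusted p = 0.0955, 0.0753 and 0.149) and -0.52 for *Hsd17b4* between the TAA groups (adjusted p = 0.117). For the calls lost in AAV-miR-34b/c against vehicle mice they were -0.75 (*Eci2*), -0.59 (*Etfdh*), -0.57 (*Eci1*), -0.50 (*Acadm*), -0.46 (*Fabp1*), -0.44 (*Acadvl*), 0.86 (*Acaa1b*) and 0.21 (*Cd36*), with adjusted p from 0.0695 (*Eci2*) to 0.682 (*Cd36*). Of 10 fasting and feeding genes, 9 were tested in each comparison. In each TAA group 4 were higher and 0 lower than in vehicle mice (7.54% of all genes higher in AAV-GFP and 12.2% in AAV-miR-34b/c mice). Between the TAA groups 1 was lower and 0 higher in AAV-miR-34b/c mice (1.42% of all genes lower). The list joins fasting with feeding genes, so these counts give no feeding state.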

How the data were processed

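Liver RNA of 19 mice was sequenced from the 3′ end of transcripts (QuantSeq, single-end reads). According to the methods, the authors' provider filtered, trimmed and aligned the reads and counted them by gene, and the submitters' notes name STAR and mm10. The values are the raw counts per gene that the authors deposited in 1 table. Strand setting, annotation release and use of molecular identifiers are not given in the sources used here, so PCR duplicates may be counted, and floors cover counting error only. Symbols, positions and 3′ UTRs came from GENCODE M21 (GRCm38), and mature miRNA and promoter sequences from RefSeq (GRCm38.p6).

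Groups were compared in pairs with edgeR 4.0.16 in R 4.3.3 (TMM, filterByExpr with minimum count 10 and minimum total 15, quasi-likelihood test, Benjamini-Hochberg adjustment over all genes, threshold 0.05). Levels are CPM with TMM over all 19 libraries. SE is the absolute log2 fold change over the square root of F, and 95% intervals are normal intervals from it. Permutation tests and organelle levels used log2 CPM with a prior count of 2. DESeq2 1.42.0 and limma 3.58.1 were alternatives. Variation within a pair of libraries is the square root of edgeR's common dispersion.

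Values are given by library for members called in any comparison and for *Ppara*, *Creb3l3* and *Cpt1a*. Other pathway genes named are *Cyp4a10*, *Cyp4a14* and, per comparison and direction, at most 3 called genes, ranked by adjusted p, and some that this rule names are not reported here. *Slc25a20*, *Ehhadh*, *Crot*, *Etfa*, *Etfb*, *Acsl1* and the left-out pair were picked once their values had been seen. The members and lists were chosen with earlier results of these data known. Labels call the samples biological replicates of mice. Replicate numbers did not pair the samples.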

Additional observations from a re-analysis of the deposited data

Results flagged for a closer look

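In 4 of the 105 combinations of member and group examined, 1 library lay apart from the rest of its group by Dixon's ratio at the 95% level, when chance alone would give about 5.25. *Eci1* was at 123 CPM in AAV-miR-34b/c replicate 1, above the next library (95.6 CPM). *Acaa1a* was at 86.0 CPM in AAV-miR-34b/c replicate 2, below the next (115 CPM). *Angptl4* was at 14.9 CPM in AAV-GFP replicate 4, below the next (36.1 CPM). *Cd36* was at 21.3 CPM in vehicle replicate 5, above the next (16.1 CPM), and still below every AAV-GFP library.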

How the results depend on the processing

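The number of members called moved with the model. In AAV-GFP against vehicle (4 called), it was 9 with limma-voom and sample weights, 15 with the replicate block, 1 with the clock score as covariate and 1 with close pairs summed, when 28.2%, 32.9%, 1.54% and 1.83% of all genes were called (12.7% as reported). The 9 were 5 higher and 4 lower, and the 15 were 5 higher and 10 lower. In AAV-miR-34b/c against AAV-GFP (2 called), it was 13 with library size only, 1 without a filter on low counts, 4 with DESeq2, 7 with limma-voom, 4 with all 3 groups in one fit, 1 with the replicate block, 0 with close pairs summed and, chosen after seeing the data, 8 without AAV-miR-34b/c replicates 1 and 2, when 6.74%, 1.92%, 5.86%, 8.79%, 4.4%, 1.53%, 0.648% and 7.54% of all genes were called (3.36% as reported). In AAV-miR-34b/c against vehicle (11 called), it was 17 with library size only, 18 with limma-voom, 4 with the clock score, 0 with close pairs summed and 19 without that pair, when 25.3%, 41.3%, 9.88%, 3.12% and 42.6% of all genes were called (21.9% as reported), while the replicate block gave 8 (10.2%).

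Leaving out 1 library at a time gave 2 to 5, 0 to 4 and 7 to 15 members called in these comparisons, when 7.11% to 19.8%, 2.23% to 3.68% and 13.4% to 29.3% of all genes were called. The lowest counts came without vehicle replicates 1 or 4 or AAV-GFP replicates 1 or 2 (2 called), without AAV-GFP replicates 5 or 7 or AAV-miR-34b/c replicates 3, 4 or 6 (0 called), and without vehicle replicate 1 or AAV-miR-34b/c replicate 4 (7 called). Same-numbered libraries correlated at -0.285 to 0.277 in their deviations, and not every library correlated best with its own number, so the block result describes shared numbers only.

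The mitochondrial minus peroxisomal difference moved when *Acaa1a* and *Acaa1b* were left out, to 0.15 (AAV-miR-34b/c against AAV-GFP) and -0.13 (against vehicle), and stayed within 1 SD under the other alternatives.

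Signs turned only in values near zero or uncalled. *Creb3l3* in AAV-GFP against vehicle (0.01) was -0.01 with the clock score and -0.08 to 0.19 without 1 library. *Ppara* between the TAA groups (-0.05) was 0.03 with the clock score, 0.13 with close pairs summed, 0.26 without the pair and -0.26 to 0.09 without 1 library, and against vehicle it was -0.03 with the replicate block. *Cyp4a10* against vehicle (0.28) was -0.01 (without vehicle replicate 4) to 0.72 without 1 library. The causes were not tested. Depth limits *Pdk4*, *Fgf21* and *Crat* most.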
